A study of Pisaster ochraceus with 50 samples.

Results

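In the pyloric caecum of asymptomatic ochre sea stars, 80 genes were taken for the steepness with which their expression climbed over the 4 size classes of the animals. They were chosen from 21777 genes by values in the 15 asymptomatic pyloric caecum libraries alone. Expression was given in CPM, the reads of a gene scaled to a common number of gene reads per library. Of the 5468 genes averaging 10 CPM or more, 375 had a Spearman correlation of at least 0.6 between CPM and size class, and the 80 of these with the highest slope of log2(CPM + 2) per class step were kept. A slope of 1 is a doubling per class. The size relation in these 15 libraries is therefore a description of the choice and is given without a test, as are all shapes drawn from it.

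The pyloric caecum is the digestive gland of a sea star and runs in pairs along each arm. It secretes digestive enzymes, takes up the products of digestion and stores nutrients such as lipid and glycogen, which are drawn on in fasting and in gamete growth. Dermis is the body wall, and tube feet are the hydraulic podia used for walking and gripping prey. The gene IDs are not paired with names in the sources used here, so each gene appears under its ID, without a role or position.

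The animals were Pisaster ochraceus from 2 sites at Point Reyes, McClures Beach and Lifeboat House. The symptomatic animals, with signs of sea star wasting disease, were 1 medium animal from Lifeboat House (M0D055236X, batch 5) and 1 large animal from McClures Beach (M0D055233U, batch 2). The 15 asymptomatic pyloric caecum libraries, each from a separate wild animal, came from 3 small, 3 medium, 5 large and 4 x-large animals. All of these were from McClures Beach except 1 large animal. From the same asymptomatic animals there were 14 dermis libraries (3, 3, 5 and 3 over the classes) and 13 tube feet libraries (2, 3, 5 and 3). 1 large and 1 x-large animal were labelled as feeding when taken, and the others as not feeding. All small animals were orange, while the other classes held orange, brown or purple animals. In asymptomatic pyloric caecum, batches 3 and 4 held all small and medium libraries, and batches 1, 2 and 5 held only large and x-large ones. The sizes are class names, and body mass and age are not given in the labels used here. Animals of different size can also differ in age and reproductive state, which cannot be told apart from size here.

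Gene reads per pyloric caecum library ranged from 721096 to 1105416, so that 1 read was worth about 1 CPM, and they averaged 890637 ± 119484 in small and 914656 ± 120604 in x-large animals (SD, n = 3 and 4). Reads that met no gene made up 70.5% to 78.8% of the counted reads in this tissue, with no order by class. The single gene with most reads, g13155, took 10.2% to 42.3% of the gene reads of a library, with class means of 23.5%, 20.7%, 18.2% and 30.3% from small to x-large. The 100 genes with the largest folds in dermis over pyloric caecum summed to 63.8 to 239 CPM in pyloric caecum against at least 24143 CPM in dermis. The corresponding 100 genes of tube feet summed to 77.8 to 332 CPM in pyloric caecum against at least 46711 CPM in tube feet. Both lists were taken from these libraries. Their class means in asymptomatic pyloric caecum did not run with size, at 137, 96.6, 136 and 110 CPM for the dermis list and 172, 176, 208 and 159 CPM for the tube feet list, and 43 to 77 of the 100 dermis genes had no read in a given library. The libraries are of bulk tissue, so fewer cells of a type and less RNA per cell cannot be told apart in any result below.

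The 80 genes had slopes of 0.72 to 2.48 per class, with a median of 0.90, and Spearman correlations of 0.60 to 0.95. Over all 5468 genes the median slope was 0.08. The genes just inside the limit of 80 were g18893 and g19051, both with a slope of 0.718, and the genes just outside were g1254 and g15645, both with a slope of 0.715, so the list has no natural edge. Mean levels spanned a wide range, 10.6 to 1752 CPM with a median of 41.6 CPM. In CPM, rising genes were more numerous than falling ones at the same strength of correlation: 375 genes (6.86%) had a correlation of at least 0.6 and 125 had one of -0.6 or lower. These counts depend on the scaling. Over all 5468 genes the median step from small to medium was 0.50 in CPM and 0.04 with the TMM normalization described below. The balance of rising and falling genes was not counted with TMM.

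Over the size classes, the median of the genes' class means was 5.18 CPM in small, 21.2 CPM in medium, 48.8 CPM in large and 76.4 CPM in x-large animals. The median rise per gene in log2(CPM + 2) was 1.27 from small to medium, 1.03 from medium to large and 0.59 from large to x-large, which is 2.41-fold, 2.042-fold and 1.504-fold. Taken as CPM, the shape is thus one of shrinking steps. This shrinkage depends on the scaling. Over all 5468 genes the median step was 0.50, 0.00 and -0.19, and relative to these the steps of the 80 genes were 0.77, 1.03 and 0.78. With TMM normalization, which centres the bulk of the genes and had a mean factor of 0.779 in small libraries against 0.982 to 1.14 in the other classes, the steps were 0.93, 0.98 and 0.80. The median step was thus a rise up to x-large under each of these scalings. It is a median over genes chosen for their slope. In CPM some single genes levelled off or fell from large to x-large, as given below, while with TMM normalization none fell at that step.

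Among single genes, 72 of the 80 rose at every step in the class mean of log2(CPM + 2), as did 9.42% of the 5468 genes, and 66 did so in the class mean of CPM. On the log2 scale, 3 of the 8 others fell from small to medium, 2 from medium to large and 3 from large to x-large. With TMM normalization 5, 2 and 0 genes fell at these steps, and 73 rose at every step. In 79 of the 80 genes, every x-large library lay above every small library, against 13.3% of the 5468 genes, a count that the choice of genes fixes for the most part. Adjacent classes overlapped more: every medium library lay above every small one in 43 genes (53.8%, against 18.9% of the 5468 genes), every large library above every medium one in 6 genes (7.5%, against 1.63%), and every x-large library above every large one in 4 genes (5%, against 0.366%). The large class was the most variable, with a median SD of 0.90 in log2(CPM + 2) per gene, against 0.51 in small, 0.75 in medium and 0.67 in x-large animals. It was also the most variable over all 5468 genes, at 0.65 against 0.56, 0.48 and 0.55.

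**Figure D1:**
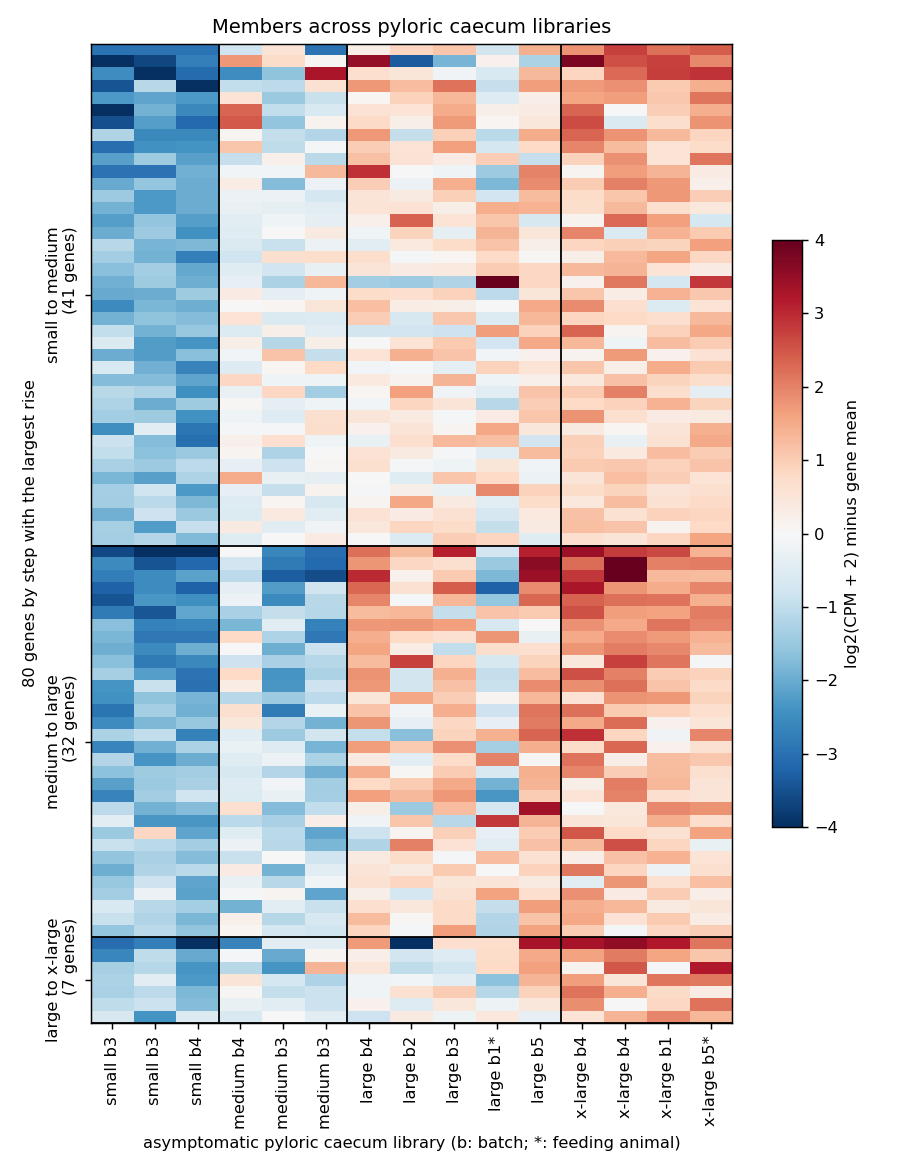
Each row is 1 of the 80 genes and each column 1 asymptomatic pyloric caecum library, ordered by size class, with the batch (b) and the feeding animals (*) named below. Colour gives log2(CPM + 2) minus the mean of that gene, cut at 4 either way. The small libraries are blue in nearly all rows and the x-large libraries red, and rows are grouped by the step with the largest rise (41, 32 and 7 genes).

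Levels in small animals were close to the limit of detection for many of the genes. In the small class 39 genes averaged under 5 CPM, and 27 genes had fewer than 10 reads over the 3 libraries together. 10 of them had 3 reads or fewer there. The number of the 80 genes with no read was 9, 9 and 13 in the small libraries, 0, 1 and 3 in the medium ones, 0 or 1 in each large library and 0 in each x-large library. For these genes the slope understates the change, because the added 2 CPM compresses low values. At the other end, the most abundant gene averaged 4326 CPM in x-large animals. Together the 80 genes took at most 0.254% of gene reads in small, 0.516% to 0.914% in medium, 0.715% to 2.49% in large and 1.74% to 2.67% in x-large animals.

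By the step at which each gene rose most, 41 genes rose most from small to medium, 32 from medium to large and 7 from large to x-large. With TMM normalization the split was 28, 35 and 17, so a gene's place in a group depends in part on the scaling. The genes rising most at the first step had median class means of 5.26, 24.3, 46.1 and 62.4 CPM from small to x-large. Those rising most at the middle step had 5.998, 11.8, 66.1 and 101 CPM, with a steeper median slope of 1.05 against 0.86 in the group of the first step. The 7 genes of the last step had 4.997, 10.5, 22.2 and 43.2 CPM. The steepest pair of each group is given by library.

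In the group of the first step, g13935 had no read in any of the 3 small libraries. It had 6.85, 20.6 and 0 CPM in medium, 16.6, 25.9, 31.7, 7.27 and 40.0 CPM in large and 52.4, 101, 69.3 and 81.9 CPM in x-large animals. Its x-large libraries all lay above every other library. The other gene of the pair, g8006, had 0, 1.33 and 4.15 CPM in small and 136, 65.9 and 40.9 CPM in medium animals. Its large libraries were split, at 470, 2.07, 9.24, 44.8 and 15.2 CPM, and its x-large libraries had 562, 244, 273 and 153 CPM. The class mean of g8006 on the log2 scale was lower in large than in medium animals, so its shape was not an even climb.

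In the group of the middle step, g18208 had the steepest slope of all 80 genes. It had 3.14, 0 and 0 CPM in small and 60.3, 8.24 and 5.52 CPM in medium animals. In large animals it had 288, 148, 539, 35.1 and 543 CPM, and in x-large animals 670, 435, 387 and 160 CPM. Small and medium libraries did not overlap, and the lowest large library lay below the highest medium one. The gene g12385 had 4.19, 1.33 and 2.07 CPM in small, 19.2, 3.09 and 2.21 CPM in medium, 121, 62.2, 54.1, 10.9 and 435 CPM in large and 167, 659, 145 and 147 CPM in x-large animals. Medium and small libraries of g12385 overlapped, while every x-large library lay above every medium one.

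In the group of the last step, g14886 was also the most abundant of the 80 genes. It had 57.6, 71.7 and 19.7 CPM in small and 75.4, 368 and 362 CPM in medium animals. Large animals ranged widely, at 1595, 15.6, 783, 797 and 4830 CPM, and x-large animals had 4839, 5772, 4530 and 2163 CPM. The large library at 15.6 CPM lay below every small library, and the one at 4830 CPM among the x-large ones. The low-level gene g20454 had 0, 3.99 and 1.04 CPM in small, 9.60, 1.03 and 11.04 CPM in medium, 12.5, 5.18, 6.60, 18.2 and 33.1 CPM in large and 35.0, 49.8, 34.1 and 24.0 CPM in x-large animals. The next most abundant gene after g14886, g11982, was already high in small animals, at 370, 513 and 364 CPM. It had 1165, 672 and 627 CPM in medium, 2009, 1063, 3496, 470 and 3360 CPM in large and 2227, 1035, 1967 and 2147 CPM in x-large animals, so that the large and x-large libraries overlapped. Its last step on the log2 scale was 0.11.

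**Figure D2:**
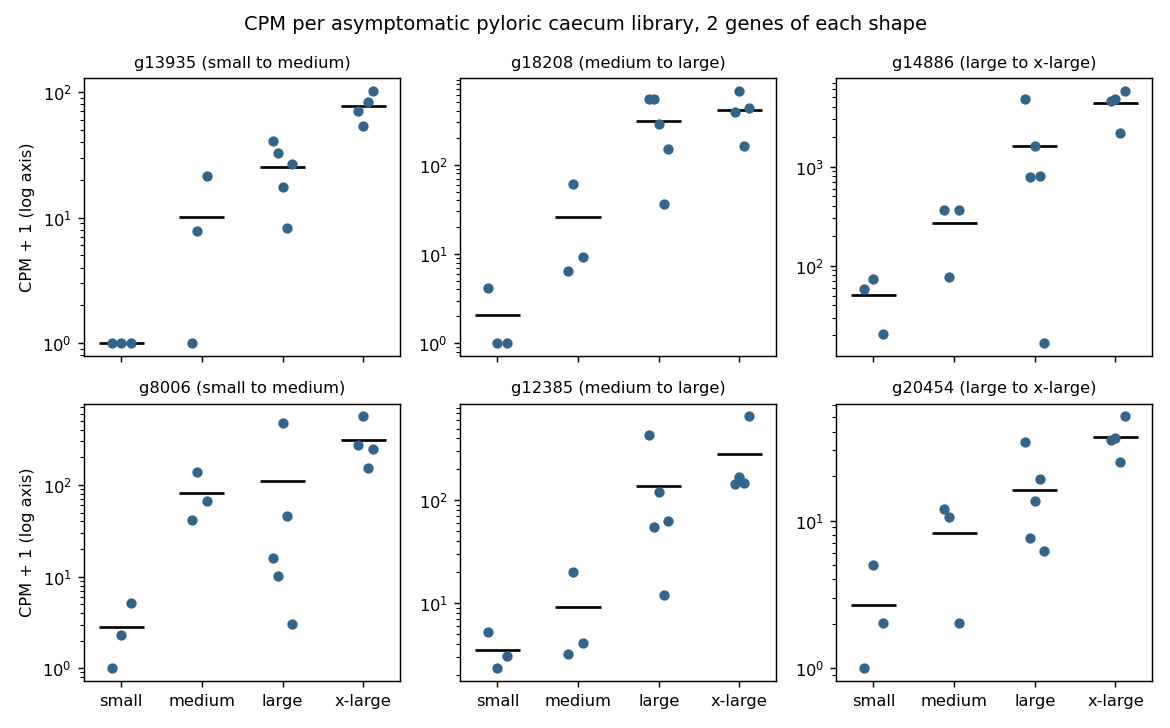
CPM + 1 on a log axis in each asymptomatic pyloric caecum library (points) and the class mean of the same quantity (bars), for the steepest 2 genes of each shape group. The x-large libraries lie above all small libraries in each panel, and the large libraries of g8006, g12385, g14886 and g18208 spread over more than a factor of 10.

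Batches 3 and 4 each held small, medium and large libraries. Within batch 3 (2 small, 2 medium and 1 large library) the median slope was 1.23, and within batch 4 (1 small, 1 medium, 1 large and 2 x-large) it was 1.00. All 80 slopes were positive in each of these batches, against 80.9% and 62.8% of the 5468 genes. These are the libraries that chose the genes, so their direction is part of the choice. Batches 1 and 5 each held 1 x-large and 1 large library, with the feeding animal the large one in batch 1 and the x-large one in batch 5. The x-large library was above the large one in 62 of the 80 genes (77.5%, against 45.1% of the 5468 genes) in batch 1 and in 36 (45%, against 54.5%) in batch 5. In batch 5 the 80 genes summed to 17425 CPM in the x-large and 24873 CPM in the large library, so the last step did not show there. The large animal of batch 5 was purple and from Lifeboat House, and the x-large one was brown and from McClures Beach. In batch 1 both were from McClures Beach, the large one brown and the x-large one orange. Size thus cannot be told apart from feeding and colour in either pair, nor from site in batch 5. Colour could not be separated from class in the small animals, which were all orange.

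For each library, the median over the 80 genes of log2(CPM + 2) minus the gene's own mean gives one value for the height of the group. It was -1.77, -1.77 and -2.06 in small, -0.28, -0.80 and -0.58 in medium, 0.56, 0.36, 0.75, -0.32 and 1.00 in large and 1.29, 1.28, 1.02 and 1.02 in x-large animals. The small, medium and x-large classes did not overlap with each other. The large class reached the medium class with 1 library, that of the feeding animal at -0.32. The feeding x-large animal was also at the low end of its class, at 1.015 against 1.024 for the next library. The feeding large animal was the lowest of the 5 large ones in 43 of the 80 genes (53.8%) and in 31.2% of all 5468 genes. The feeding x-large animal was the lowest of the 4 x-large ones in 24 of the 80 genes (30%) and in 9.64% of all 5468 genes. At the other end, the feeding large animal was the highest of its class in 16 of the 80 genes (20%), against 18.2% of the 5468 genes. For the feeding x-large animal these were 12 genes (15%), against 43.7%. There was 1 feeding animal per class and both were in batches without small or medium libraries, so the part of feeding was not tested. Without the feeding animals the median slope was 0.96.

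**Figure D3:**
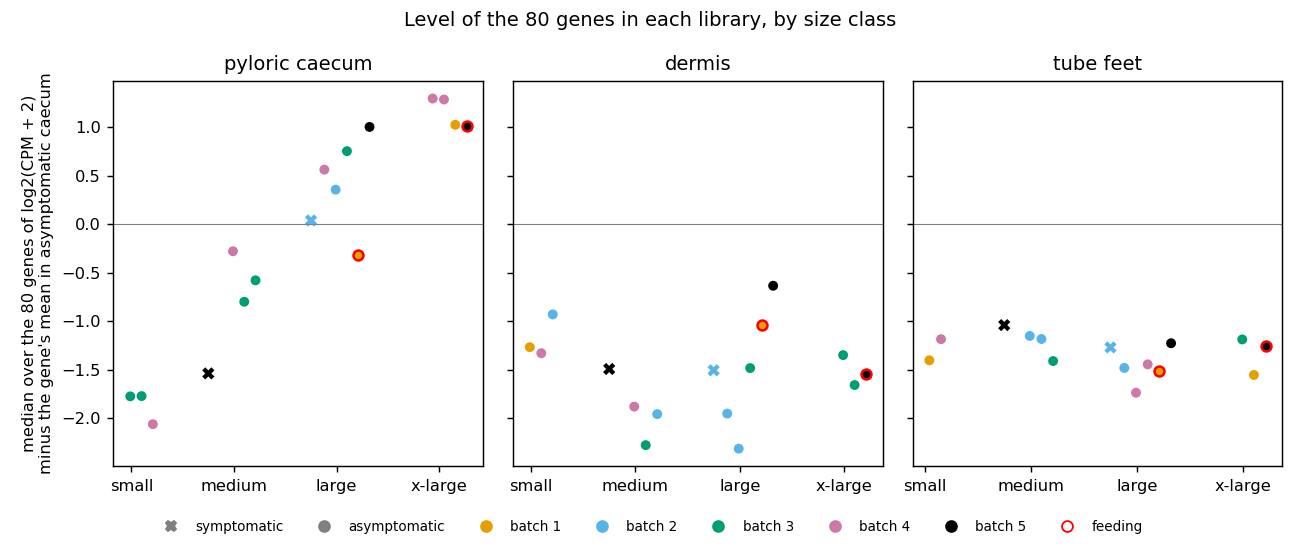
Median over the 80 genes of log2(CPM + 2) minus the gene's mean in asymptomatic pyloric caecum, for each library by size class and tissue, with the batch as colour, symptomatic animals as crosses and feeding animals ringed in red. Asymptomatic pyloric caecum climbs from -2.06 to 1.29, while asymptomatic dermis lies between -2.31 and -0.63 and asymptomatic tube feet between -1.74 and -1.15.

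Dermis and tube feet had no part in the choice of the genes, although the libraries come from the same animals, so that the size relation can be tested there. The dermis libraries were in batches 1, 2 and 4 for small and in batches 3 and 5 for x-large animals. With no batch in common, size and batch cannot be told apart in that contrast. In tube feet, small libraries were in batches 1 and 4 and x-large ones in batches 1, 3 and 5. In dermis, none of the 69 genes averaging 1 CPM or more passed a false discovery rate of 0.01 between x-large and small animals in edgeR's quasi-likelihood test, where 0.0703% of 14231 tested genes were higher and 0.0632% lower in x-large animals. The other 11 genes were under 1 CPM in dermis. At an unadjusted p under 0.05, 7 of the 69 genes (10.1%) were higher in x-large animals, against 2.85% of all tested genes, and 1 (1.45%) was lower, against 3.59%. The median log2 fold change was 0.25 for the 69 genes and -0.03 for all tested genes. Every x-large library lay above every small one in 9 genes (13%), against 3.22% of tested genes, and below in 1 gene (1.45%), against 8.95%. Over all 4 classes 41 of the 69 genes had a positive slope in dermis, against 46.1% of tested genes. Their median slope was 0.07, against -0.02 for all tested genes. With the genes under 1 CPM included, 46 of the 80 genes had a positive slope, with a median of 0.05. With batch as a covariate this median was -0.038.

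The gene with the strongest size relation in dermis, picked out with its values known, was g11766. In dermis it had 61.3, 13.8 and 37.6 CPM in x-large animals, against 4.90, 2.24 and 7.04 CPM in small animals. Medium animals had 14.7, 10.7 and 12.4 CPM and large animals 12.8, 21.5, 27.0, 45.1 and 58.0 CPM, so the classes between were intermediate. The x-large and small libraries did not overlap, and the log2 fold change was 2.99 ± 0.61 (SE) with an adjusted p of 0.0186 in edgeR. This missed the threshold, and the DESeq2 Wald test placed the gene past it.

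In tube feet, none of the 67 genes averaging 1 CPM or more passed the false discovery rate of 0.01 between x-large and small animals in edgeR, where 0.0263% of 15200 tested genes were higher and 0.118% lower in x-large animals. Of the other 13 genes, 2 had no read in this tissue. At an unadjusted p under 0.05, 11 of the 67 genes (16.4%) were higher, against 4.38% of all tested genes, and 8 (11.9%) were lower, against 6.11%. The median log2 fold change was 0.32 for the 67 genes and -0.01 for all tested genes. Both x-large and small classes are few here (3 and 2 libraries), and all x-large libraries lay above the small ones in 19 genes (28.4%), against 13.4% of tested genes. All lay below in 7 genes (10.4%), against 13.6%.

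The 2 genes nearest to the threshold in tube feet moved in opposite directions. Both were picked out with their values known. The gene g17246 had 233, 161 and 41.5 CPM in x-large animals, against 14.2 and 2.81 CPM in small animals, with 20.2 to 31.3 CPM in medium and 22.7 to 173 CPM in large animals. Its log2 fold change was 4.06 ± 0.81 (SE) with an adjusted p of 0.0180 in edgeR. The gene g4875 was lower, at 12.3, 10.9 and 21.5 CPM in x-large animals, against 91.2 and 96.8 CPM in small animals, a log2 fold change of -2.69 ± 0.51 (SE) with an adjusted p of 0.0133 in edgeR. In pyloric caecum the same gene had 45.7, 15.0, 25.1 and 14.2 CPM in x-large animals, against 3.14, 9.30 and 1.04 CPM in small animals. Its size relation in tube feet thus ran against that in pyloric caecum. Both genes passed the threshold in tube feet when size was fitted as a linear trend, and with DESeq2.

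Over the asymptomatic animals most of the 80 genes were higher in pyloric caecum than in the other tissues. Against dermis, 57 were higher in pyloric caecum at a false discovery rate of 0.01 in edgeR, where 18.4% of 15207 tested genes were higher, and 7 were lower, where 19.2% were lower. Against tube feet, 54 were higher, where 16.3% of tested genes were higher, and 9 were lower, where 21.7% were lower. Because the 80 genes had to reach 10 CPM in pyloric caecum, the nearer comparison is with the 5468 genes that did so. Of those, 36.7% were higher than in dermis and 34% higher than in tube feet, against 71.2% and 67.5% of the 80 genes. Of the same 5468 genes, 14.1% were lower than in dermis and 13% lower than in tube feet, against 8.75% and 11.2% of the 80 genes. At an unadjusted p under 0.05, 58 genes were higher than in dermis and 7 lower, where 26.2% and 26.8% of tested genes were, and 58 were higher than in tube feet and 10 lower, where 21.8% and 30.1% were. The median log2 fold change of the 80 genes was 2.21 over dermis and 2.99 over tube feet.

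Taking both comparisons together, 51 genes were higher in pyloric caecum than in both other tissues, where 11.7% of all tested genes and 26.1% of the 5468 genes were. 5 genes were lower than in both, where 11.9% of all tested genes were, and 12 passed the threshold in neither comparison. The remaining 12 genes were mixed, with 3 higher than in dermis but lower than in tube feet. Of the 51 genes, 23 belonged to the group rising most from small to medium (41 genes), 24 to that rising from medium to large (32 genes) and 4 to that rising from large to x-large (7 genes). All 5 genes that were lower than in both tissues belonged to the group of the first step, with groups taken in CPM. That group held 28 genes with TMM normalization, and the tissue calls were not split by those groups.

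The genes with the largest folds were nearly silent outside pyloric caecum. The gene g18208 averaged 219 ± 237 CPM in pyloric caecum, against 0.687 ± 1.48 CPM in dermis and 0.456 ± 0.713 CPM in tube feet (SD, n = 15, 14 and 13). Its log2 fold change was 8.63 over dermis and 9.23 over tube feet. In small animals, where it had at most 3.14 CPM in pyloric caecum, it had no read in dermis or tube feet. The gene g2961 averaged 258 ± 154 CPM in pyloric caecum, against 1.19 CPM in dermis and 0.362 CPM in tube feet, with log2 fold changes of 8.08 and 9.72. Its levels in pyloric caecum were 49.2, 50.5 and 74.6 CPM in small, 259, 160 and 182 CPM in medium, 340, 329, 387, 96.9 and 285 CPM in large and 442, 250, 539 and 430 CPM in x-large animals. All libraries of the small class lay below all others, and the large library at 96.9 CPM was that of the feeding animal.

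A few of the genes had their main level outside pyloric caecum. The gene g13608 averaged 10.97 ± 10.97 CPM in pyloric caecum, against 184 ± 74.3 CPM in dermis and 202 ± 60.4 CPM in tube feet. Its log2 fold changes were -3.44 over dermis and -3.14 over tube feet. In pyloric caecum it had 0, 1.33 and 0 CPM in small, 2.74, 8.24 and 2.21 CPM in medium, 18.0, 11.4, 9.24, 15.8 and 2.76 CPM in large and 14.8, 29.9, 11.05 and 37.1 CPM in x-large animals. The gene g4875 averaged 15.6 CPM in pyloric caecum, against 110 CPM in dermis (log2 fold change of -2.27). It averaged 28.1 CPM in tube feet, and with a log2 fold change of 0.15 it did not pass the threshold there. The gene g4038 averaged 18.1 CPM in pyloric caecum, against 194 ± 151 CPM in tube feet (log2 fold change of -2.41). The dermis and tube feet lists summed above were chosen in these same libraries for being low in pyloric caecum, so their low sums follow from the choice. Whether other tissue taken along with pyloric caecum added to the levels of these genes was not tested.

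**Figure D4:**
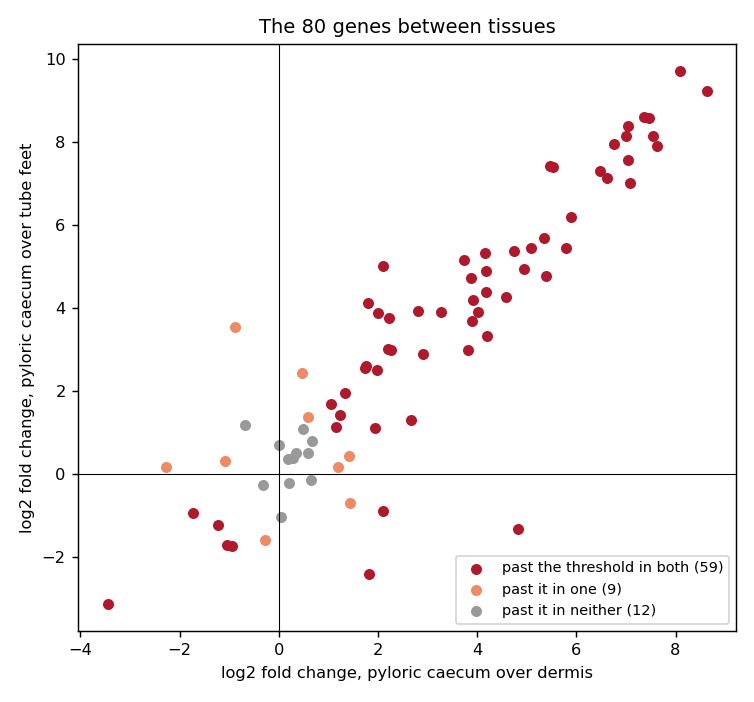
Log2 fold change of each of the 80 genes in asymptomatic animals, pyloric caecum over dermis (horizontal) and pyloric caecum over tube feet (vertical), coloured by whether it passed a false discovery rate of 0.01 in both comparisons (59 genes), in 1 (9) or in neither (12). Most genes lie in the upper right, higher in pyloric caecum than in either tissue, and g13608 is the point at the lower left.

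The standing of pyloric caecum among the tissues changed with size for these genes. In small animals the median of the 80 genes was 5.18 CPM in pyloric caecum, against 15.3 CPM in dermis and 14.5 CPM in tube feet. In medium animals it was 21.2 CPM in pyloric caecum, against 8.67 and 17.4 CPM in those tissues. In large animals it was 48.8 CPM, against 15.0 and 17.6 CPM, and in x-large animals 76.4 CPM, against 15.2 and 21.4 CPM. Pyloric caecum had the highest class mean of the 3 tissues in 26, 42, 55 and 57 of the 80 genes from small to x-large. These are 32.5%, 52.5%, 68.8% and 71.2%, against 20.6%, 28.7%, 29.1% and 24.6% of the 5468 genes. It had the lowest in 42, 20, 12 and 10 genes, which are 52.5%, 25%, 15% and 12.5%, against 68.7%, 32.8%, 46% and 58.3% of the 5468 genes. A low standing of pyloric caecum in small animals was thus general, with medians over the 5468 genes of 16.8 CPM in pyloric caecum, against 29.0 CPM in dermis and 34.6 CPM in tube feet. The direction of this change in pyloric caecum follows from the choice of the genes, and the levels of the other tissues do not.

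The symptomatic libraries of pyloric caecum were also outside the choice, although the asymptomatic libraries they are set against are those that chose the genes. With size class in the model, 9 of the 80 genes passed the false discovery rate of 0.01 in edgeR. Of these, 7 were higher in symptomatic animals, where 1.88% of 13205 tested genes were higher, and 2 were lower, where 0.583% were lower. At an unadjusted p under 0.05, 15 genes were higher, where 10.1% of tested genes were, and 28 were lower, where 10.5% were. The median log2 fold change was -0.65 for the 80 genes and -0.16 for all tested genes. The tested genes averaged 1 CPM or more, while the 80 genes had to reach 10 CPM, so these shares are not like for like. Calls among all genes of 10 CPM or more were not counted for this comparison. Whether the 80 genes were called more often than genes of similar level was thus not tested. The comparison by size class below is with all genes of 10 CPM or more. Without the large symptomatic animal M0D055233U no gene passed, and without M0D055236X 4 genes did, all higher. With batch as a covariate no gene passed either. The folds of the named genes kept their direction under every alternative run. The 2 symptomatic animals differed from each other in batch, site and class. Each shared its batch and its site with asymptomatic pyloric caecum libraries. Size class was in the main model, while batch and site were not. With so few libraries, batch and site cannot be fully told apart from disease.

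Each symptomatic library was also set beside asymptomatic libraries of its own class. The medium symptomatic library had a median of -1.54 on the scale of the library plot, against -2.06 to -1.77 in the asymptomatic small libraries and -0.80 to -0.28 in the asymptomatic medium libraries. It lay below all 3 of them in 47 genes (58.8%), against 54.4% of all 5468 genes, and above all of them in 15 genes (18.8%), against 12.4%. In this library g13155 took 42.3% of the gene reads, against at most 38.4% in asymptomatic libraries, and the part of that in these lower levels was not tested. The large symptomatic library had a median of 0.04, against -0.32 to 1.00 in the asymptomatic large libraries. It lay below all 5 of them in 24 genes (30%), against 27.4% of all 5468 genes, and above all in 17 genes (21.2%), against 19.7%. Of the 80 genes, 46 (57.5%) were lower than the asymptomatic class mean in both symptomatic libraries, against 51.6% of the 5468 genes. 17 (21.2%) were higher in both, against 19.7%, and 17 went opposite ways.

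The 7 genes that passed as higher in symptomatic animals had log2 fold changes from 1.66 (g192) to 5.75 (g17246). Of these, the 2 with the largest folds are given by library. In pyloric caecum g17246 had 204 CPM in the medium and 951 CPM in the large symptomatic animal, against at most 24.3 CPM in asymptomatic medium and 30.3 CPM in asymptomatic large animals. Its highest asymptomatic x-large library had 92.8 CPM. The log2 fold change was 5.75 ± 0.73 (SE) with an adjusted p of 2.0e-05 in edgeR. This gene was also high in the symptomatic dermis libraries, at 3229 CPM in the medium and 3621 CPM in the large animal, against at most 89.5 CPM in any asymptomatic dermis library. In tube feet it had 236 CPM in the medium and 238 CPM in the large symptomatic animal, against 2.81 to 233 CPM in asymptomatic animals. In the Friday Harbor animal, which entered no comparison, the tube feet library labelled symptomatic had 127 CPM and the one labelled asymptomatic 1222 CPM. The gene g13608 had 39.8 CPM in the medium and 175 CPM in the large symptomatic animal, against at most 8.24 CPM in asymptomatic medium and 18.0 CPM in asymptomatic large animals. Its log2 fold change was 3.84 ± 0.49 (SE) with an adjusted p of 2.1e-05 in edgeR. For both genes the symptomatic libraries lay above every asymptomatic pyloric caecum library, whatever its class. Without M0D055233U the log2 fold change was 5.05 for g17246 and 3.64 for g13608, on 1 symptomatic library and past the threshold for neither.

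The genes that fell were g5526 and g17497. In pyloric caecum g5526 had no read in the medium and 1.07 CPM in the large symptomatic animal, against 9.60 to 18.8 CPM in asymptomatic medium and 10.6 to 40.0 CPM in asymptomatic large animals. Its fitted log2 fold change was -4.66 ± 1.04 (SE) with an adjusted p of 0.0075 in edgeR, on 1 read in the symptomatic libraries together. The gene g17497 had 2.71 CPM in the medium and 5.34 CPM in the large symptomatic animal, against 15.4 to 22.1 CPM in asymptomatic medium and 35.3 to 58.2 CPM in asymptomatic large animals (log2 fold change of -2.63 ± 0.59, SE). The symptomatic libraries of both genes lay near or below the level of asymptomatic small animals, which had 1.04 to 3.99 CPM of g5526 and 5.18 to 9.30 CPM of g17497. Each of these 2 calls was lost under 10 of 24 alternative settings, over which the log2 fold change was -6.53 to -4.16 for g5526 and -2.95 to -2.17 for g17497.

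The most abundant gene of the group did not follow the median. The gene g14886 had 3109 CPM in the medium and 2008 CPM in the large symptomatic animal, against 75.4 to 368 CPM in asymptomatic medium and 15.6 to 4830 CPM in asymptomatic large animals. It made up 48.8% of the reads of the 80 genes in the medium symptomatic library. Its log2 fold change was 2.78 ± 1.06 (SE) with an adjusted p of 0.126 in edgeR, so it did not pass the threshold. The steepest gene, g18208, had no read in the medium symptomatic library, against 5.52 to 60.3 CPM in asymptomatic medium animals, and 110 CPM in the large one, against 35.1 to 543 CPM.

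**Figure D5:**
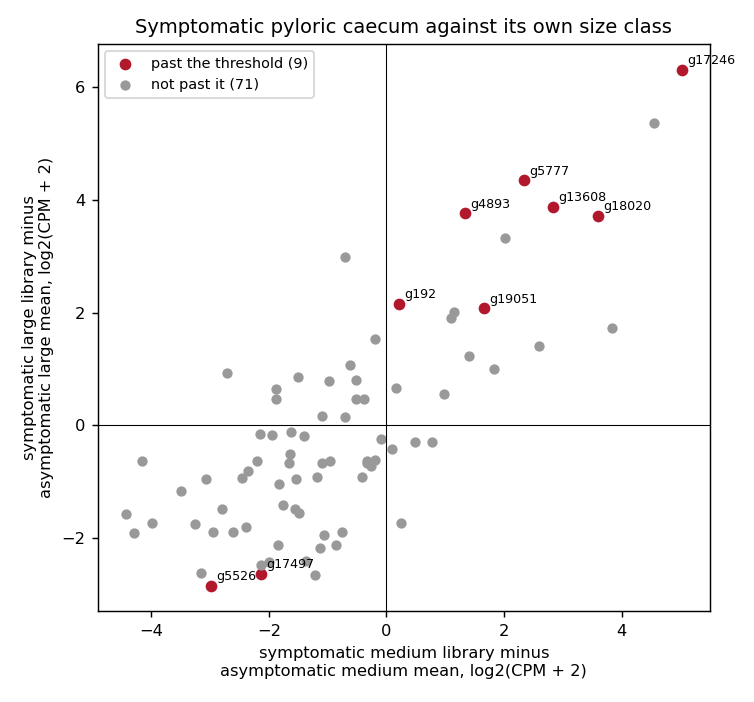
Difference of each symptomatic pyloric caecum library from the asymptomatic mean of its own size class in log2(CPM + 2), medium on the horizontal and large on the vertical axis, with the 9 genes past the false discovery rate of 0.01 in red and named. Most points lie at the lower left, with 46 of 80 genes lower in both libraries, g17246 at the upper right and g5526 at the lower left.

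The ID numbers of the genes were not spread evenly. Of the 80 genes, 19 (23.8%) had another of the 80 within 3 ID numbers, while 136 of the 5388 other genes with at least 10 CPM (2.52%) lay that close to one of the 80. The neighbours were g2854, g2855 and g2856, and the pairs g2959 and g2961, g7662 and g7663, g8006 and g8008, g9020 and g9023, g11459 and g11460, g11792 and g11794, g12385 and g12386, and g18020 and g18021. These were noticed after the values were seen. The sources used here do not say whether ID numbers follow the order along the genome or whether neighbours are near-identical copies, and reads shared between such copies could tie their counts together. The neighbours were not always alike in tissue: g18020 averaged 14.8 CPM in dermis and 12.8 CPM in tube feet, while g18021 had 0.160 and 0.115 CPM in those tissues.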

How the data were processed

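Per the labels' protocols, the kits used were Qiagen RNeasy Mini for RNA and Illumina TruSeq RNA v2 for libraries. The submitters' processing notes name Trim Galore 0.4.4, TopHat2 2.0.13, SAMtools 0.1.19 and edgeR. The authors deposited raw counts, 1 whole number for each of 21777 genes, followed by 5 summary lines that were left out of library sizes and tests. The genome build, gene models, read counter and strandedness are each not given in the sources used here. Reads of overlapping, antisense or near-identical genes may be shared. In the size and status comparisons the p-values compare separate wild animals. In the tissue comparisons, libraries of the same animal were taken as independent, and the animal was fitted only as an alternative.

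CPM and slopes were computed with Python 3.11.15, NumPy 2.4.6 and pandas 2.3.3. Tests used edgeR 4.0.16 in R 4.3.3, with TMM normalization and genes averaging 1 CPM or more over the libraries fitted. They were quasi-likelihood F-tests over all genes, with a Benjamini-Hochberg false discovery rate of 0.01. DESeq2 1.42.0 served for alternatives. The limma version was 3.58.1, with no limma model fitted. The edgeR settings were also tested on simulated data. X-large was set against small with all 4 classes fitted as groups, symptomatic against asymptomatic with size class as covariate (17 libraries), and tissues over 42 asymptomatic libraries. The 2 tube feet libraries of Friday Harbor entered no comparison. Each standard error was taken as the absolute log2 fold change over the root of F. Libraries of 1 animal are paired by the animal ID in the labels. Deviations were taken from the mean over all asymptomatic libraries of a tissue, with the size classes pooled. Those of paired libraries correlated with a median r of 0.115 between pyloric caecum and dermis over 14 animals. Between pyloric caecum and tube feet it was 0.125 over 13 animals. No r was computed for libraries of different animals, so these values do not test the pairing.

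Named genes are the 2 steepest of each shape group, the 2 most abundant, up to 2 past the threshold with the largest fold in each direction of each comparison with 10 CPM or more on average in the higher group, and the 2 on each side of the limit of 80. Others were chosen after their values were seen. The 80 genes and all lists were chosen with earlier results of these data known. Alternatives varied the pseudocount, filter, normalization, tool, threshold, batch, animals and pairing, and the scaling of the shape groups was varied after seeing the data.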

Additional observations from a re-analysis of the deposited data

Results flagged for a closer look

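Dixon's test was applied to 74 sets of values, each of 1 named gene or the summed 80 genes in 1 class and tissue. The sets came from large and x-large pyloric caecum, large dermis and large tube feet, with 4 or 5 libraries each. They share libraries and are not independent. The test checked whether the highest or lowest library stood apart from the rest of its set, which chance meets in about 1 of 20 sets. In 12 sets a library did, each time the highest.

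In pyloric caecum, g12385 stood apart in 1 large library with 435 CPM (the next had 121 CPM) and in 1 x-large library with 659 CPM (next 167 CPM). The gene g8006 did so in 1 large library with 470 CPM (next 44.8 CPM), and g4038 in 1 x-large library with 53.8 CPM (next 22.9 CPM). The class means of these genes in the report include those libraries.

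In dermis of large animals, 1 library each held the only reads of g12385 (6.15 CPM), g13935 (2.05 CPM) and g8006 (5.13 CPM), which is 1 to 3 reads at this depth. Also in large dermis, g20454 had 11.2 CPM in 1 library (next 2.46 CPM) and g11982 had 67.3 CPM (next 38.9 CPM), both in M0D055234V, the asymptomatic animal from Lifeboat House.

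In tube feet of large animals, g20454 had 4.48 CPM in 1 library (next 1.62 CPM) and g2961 had 1.62 CPM in the only library with a read. The sum of the 80 genes was 9767 CPM in 1 of these libraries (next 7426 CPM).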

How the results depend on the processing

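The choice of the 80 genes kept 57 to 76 of them under the 14 other settings tried, with 57 when only batches 3 and 4 were used, and 64 to 77 with 1 library left out. The median slope in pyloric caecum was 1.06 and 0.78 with pseudocounts of 0.5 and 5, 1.23 and 1.00 within batches 3 and 4, and 1.27, 1.03 and 0.59 over the single steps, and 0.86 to 0.95 with 1 library left out. Under the DESeq2 size factors 27 genes rose most from small to medium and 17 from large to x-large, and TMM also gave 17 for the last step. The median slope in dermis turned to -0.038 with batch as a covariate and was 0.020 to 0.13 with 1 library left out, and that in tube feet was 0.02 to 0.08.

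For x-large against small, dermis had 1 call at a false discovery rate of 0.05, with DESeq2 and without the filter, and 0 to 1 with 1 animal left out. Tube feet had 2 calls at 0.05, with DESeq2, without the filter and with a linear trend, 1 without the feeding animals, and 0 to 1 with 1 animal left out. For symptomatic against asymptomatic pyloric caecum there were 20 calls at 0.05, 16 with DESeq2, 15 without the filter, 5 with status alone, 5 at McClures Beach alone, 0 with batch as a covariate, and 0 to 16 with 1 animal left out, the 16 being without M0D055232T. The cause was not tested. The lone symptomatic library in such fits is assumed to vary like the others. The calls of g17246 and g13608 were lost with batch as a covariate and without M0D055233U, with log2 fold changes of 5.05 to 6.78 and 3.31 to 4.21 over all alternatives. Tissue calls were 61 to 64 over dermis and 60 to 63 over tube feet with 1 animal left out, and 60 and 64 with the animal as replicate block, which changed no call of a named gene. At 1 read per CPM or so, levels of a few CPM rest on a handful of reads.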
